A study of Homo sapiens with 30 samples.

Results

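The genes described here act in mitosis, in the spindle checkpoint and in the separation of chromosomes. They are 50 of the 19775 genes measured, listed by name for their roles in cell division. Kinesins were not part of the list, except CENPE, a kinesin-like motor listed as a centromere protein. The rule for members uses no measured value, but the list was chosen with earlier results of these data known. The transcripts were measured in A375 cells, a long-established melanoma line, after 1, 2, 4, 8 or 24 h with 650 nM MLN4924 or, as the control, with 0.065% of its vehicle DMSO. Each of the 10 groups had 3 arrays, so each time had its own DMSO arrays, and the comparison is of 1 dose in 1 cell line. Whether the 3 samples of a group came from different cultures is not in the labels, and p-values here cover the spread between those samples, which may be technical. Every array measured the RNA of a whole culture, in which fewer dividing cells and less RNA per cell cannot be told apart.

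MLN4924 (pevonedistat) blocks the enzyme that activates NEDD8, a small protein whose attachment to cullins switches on the cullin-RING ubiquitin ligases. Dividing cells make most mitotic transcripts in a wave that peaks in G2 and M phase. Cyclin B with CDK1 then starts mitosis, the spindle checkpoint holds it until every kinetochore is attached, and the anaphase-promoting complex ends it by marking securin and cyclin B for destruction. Many promoters of this wave carry a cell cycle homology region, or CHR, and CCAAT boxes. The CHR is bound by the MuvB complexes: DREAM, which holds its targets silent, and the complexes with MYBL2 and FOXM1, which switch them on.

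The transcripts of these genes fell late. Values are signals of the probe set that stands for a gene, after quantile normalization between arrays, in the units of the deposited signal, and a log2 change is the MLN4924 mean minus the DMSO mean of log2(signal + 32). Because 32 was added, changes of dim genes are understated. A gene passed the test where limma's p-value, adjusted over all 19775 genes by the Benjamini-Hochberg method, was under 0.05. Taken as the median of the 50 genes relative to their DMSO 1 h means, the level on the 3 MLN4924 arrays at 24 h was -1.18, -1.22 and -1.31 on the log2 scale, against -0.25, -0.26 and -0.22 on the 3 DMSO arrays. On the arrays of 1 to 8 h this median stayed between -0.047 and 0.10. The arms overlapped at 1, 2 and 4 h; at 8 h the MLN4924 arrays lay at 0.013 to 0.032, just below the DMSO arrays at 0.033 to 0.045.

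**Figure D1:**
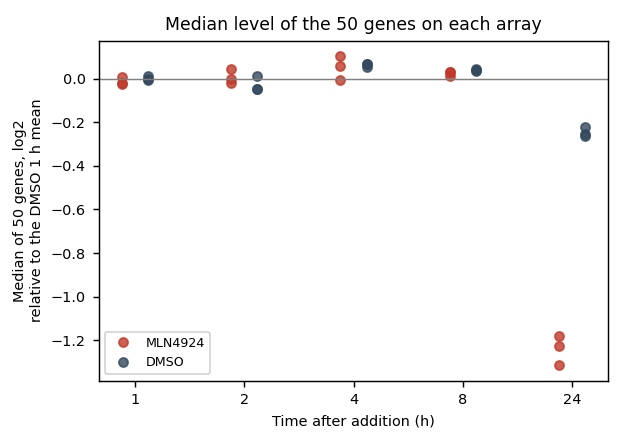
Median level of the 50 genes on each of the 30 arrays, as log2 relative to the mean of the DMSO 1 h arrays, against time in h on a scale of equal steps; points are arrays, MLN4924 left of DMSO. The 3 MLN4924 arrays at 24 h lie between -1.31 and -1.18, the 3 DMSO arrays at 24 h between -0.26 and -0.22, and all earlier arrays near 0.

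The median log2 change of the 50 genes was -0.010 at 1 h, 0.039 at 2 h, -0.021 at 4 h, -0.055 at 8 h and -0.81 at 24 h, while the median over all genes lay between -0.014 and 0.0037. At 1 h no member passed in limma's test, while 0% of all genes were called lower and 0.00506% higher. An unadjusted p under 0.05 was seen in 4 of 50 members, a somewhat larger share than the 4.9% of all genes. None passed at 2 h either, where 0.212% of all genes were called lower and 0.339% higher. There 10 of 50 members had an unadjusted p under 0.05, a larger share than the 10.2% of all genes. At 2 h limma-trend called 1 lower. The first call came at 4 h: CDC25B alone was lower, against 1.57% of all genes called lower and 1.83% higher. At 8 h 4 members were lower (CCNB2, NEK2, DLGAP5 and CDCA8) and 2 were higher (CDK1 and FOXM1). Over all genes 6.81% were called lower and 8.37% higher at 8 h, so these counts were near the background. With each array centred on its median instead, which moves the median of all genes at 8 h by 0.0801, the count became 0 lower and 10 higher, beside 4.07% lower and 14.1% higher of all genes. At 24 h 43 of the 50 were lower and 2 higher, against 18.1% and 15.9% of all genes. Of the 43, 19 were at least 2-fold lower, 15 were between 1.5-fold and 2-fold lower, and 9 were less than 1.5-fold lower, on the scale of signal + 32.

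**Figure D2:**
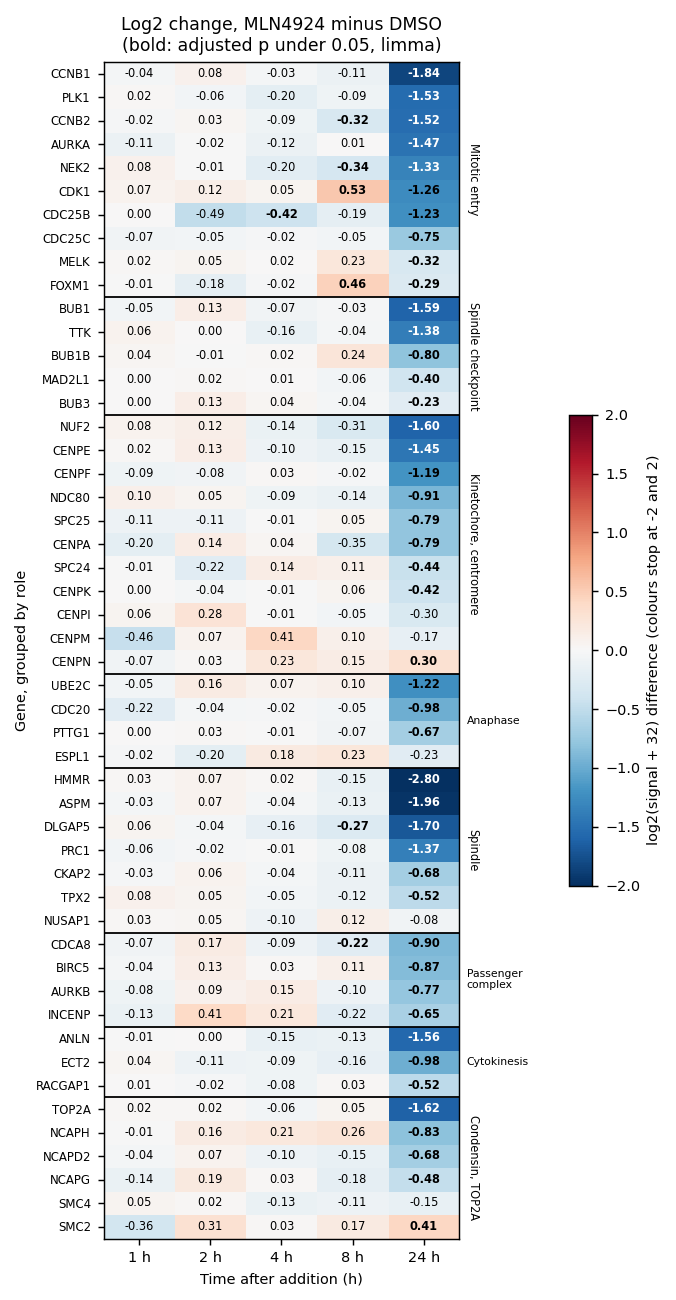
Log2 change, MLN4924 minus DMSO, of each of the 50 genes (rows, grouped by role and ordered by the change at 24 h) at each time in h (columns); blue is lower with MLN4924, red higher, and bold marks an adjusted p under 0.05 in limma. Bold values are few up to 8 h and fill most of the 24 h column, where CENPN (0.30) and SMC2 (0.41) are the 2 higher ones.

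The step from 8 to 24 h was tested as a change of the effect itself. The effect was lower at 24 h than at 8 h for 37 of the 50 members, against 11.2% of all genes, and higher for none, against 8.21% of all genes; limma-trend called 39 and none, and 42 members had an unadjusted p under 0.05 in either direction, against 28.9% of all genes. Between 4 and 8 h no change of a member's effect passed, where 0.794% of all genes were called lower and 0.774% higher; 5 of 50 members had an unadjusted p under 0.05, against 12.6% of all genes. None passed from 2 to 4 h, where 0.298% of all genes were called lower and 0.192% higher; 3 of 50 had an unadjusted p under 0.05, against 8.42%. None passed from 1 to 2 h, where 0.0455% of all genes were called lower and 0.101% higher; 8 of 50 had an unadjusted p under 0.05, against 6.87%. At these 3 steps limma-trend called none.

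The regulators of mitotic entry all fell by 24 h. All 10 passed as lower, with a median log2 change of -1.29. CCNB1 encodes cyclin B1, the partner that activates CDK1. Its signals at 24 h were 787, 754 and 716.5 with MLN4924, against 2808, 2725 and 2775 with DMSO. All 3 treated arrays lay far below the controls, and the log2 change was -1.84 ± 0.056 (SE, adjusted p = 3.98e-18), or 3.57-fold lower. At 8 h CCNB1 had given 3465, 3386 and 3594 with MLN4924, against 3649.9, 3842 and 3793 with DMSO, without overlap either, yet that change of -0.11 ± 0.056 did not pass. CCNB2, which encodes cyclin B2, was called lower at 8 h, by -0.32 ± 0.06, and reached -1.52 at 24 h. Its 8 h call was lost with arrays centred on their medians, at -0.10, and with the mean of its probe sets, at -0.087. It was also lost with only the groups compared. The mitotic kinases PLK1 and AURKA changed by -1.53 and -1.47 at 24 h, and CDC25C, the phosphatase that frees CDK1 of its inhibitory phosphates, by -0.75.

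NEK2, a kinase that separates centrosomes, was called lower at 8 and at 24 h. Its signals at 8 h were 879, 888 and 943 with MLN4924, against 1118, 1133 and 1199 with DMSO. At 24 h they were 403, 400.4 and 355 with MLN4924, against 1026, 1016.5 and 1014 with DMSO. Both times the arms did not overlap, with log2 changes of -0.34 ± 0.086 (SE, adjusted p = 0.00741) at 8 h and -1.33 ± 0.086 (SE, adjusted p = 5.38e-12) at 24 h. With arrays centred on their medians the NEK2 change at 8 h was -0.155 and did not pass. CDC25B, another CDK-activating phosphatase, was the earliest called member. At 4 h it gave 704, 755 and 749.5 with MLN4924, against 958, 956 and 1068 with DMSO. The arrays did not overlap, and the change was -0.42 ± 0.12 (SE, adjusted p = 0.0496), but this call was lost whichever of the 6 arrays was left out, with an adjusted p between 0.0931 and 0.208. At 2 h CDC25B gave 1031, 770.1 and 845.5 with MLN4924, against 1453, 1336 and 998 with DMSO, so the DMSO arrays were spread widely, and the change of -0.49 did not pass. At 24 h its signals were 309.8, 338 and 329 with MLN4924, against 838, 768 and 816 with DMSO, a change of -1.23 ± 0.12 (SE, adjusted p = 5.78e-09).

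CDK1 and FOXM1 were higher at 8 h and lower at 24 h. CDK1, the kinase that drives mitosis, had signals at 8 h of 3814, 4005 and 4005 with MLN4924, against 2183, 2729.5 and 3339 with DMSO. The 3 MLN4924 arrays were close to each other and above the scattered DMSO arrays, a change of 0.53 ± 0.10 (SE, adjusted p = 0.000599). Between 4 and 8 h the CDK1 level changed by -0.044 ± 0.10 in MLN4924 and by -0.53 ± 0.10 (SE, adjusted p = 0.0363) in DMSO, on the log2 scale. The DMSO call was lost without any of 5 of its 6 arrays, at an adjusted p between 0.0731 and 0.233; with the mean of the CDK1 probe sets the change was -0.19 and the adjusted p 0.48. The 3 other CDK1 probe sets changed by -0.043, 0.012 and 0.57 at 8 h, none of them past the threshold, so the 8 h call rests on 1 of 4 probe sets. At 24 h CDK1 gave 1021, 1256 and 1287 with MLN4924, against 2762, 2808 and 3038 with DMSO, a change of -1.26 ± 0.10 (SE, adjusted p = 4.14e-10), and the 3 other probe sets were also lower, by -1.17, -1.11 and -0.88.

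FOXM1 encodes the transcription factor that activates many of the other genes in G2. At 8 h its signals were 638, 650.3 and 647 with MLN4924, against 466, 443 and 473 with DMSO. The arms were apart, with a change of 0.46 ± 0.11 (SE, adjusted p = 0.00592). At 24 h they were 269, 304 and 235 with MLN4924, against 382.5, 321 and 308 with DMSO. The treated arrays were lower, but by only -0.29 ± 0.11 (SE, adjusted p = 0.0466). At 24 h the adjusted p was 0.088 or 0.228 once MLN4924 replicate 1 or 3 was dropped, and 0.235 or 0.0594 once DMSO replicate 1 or 2 was dropped, so 1 array decides this call. FOXM1 also fell with time in both arms, with log2 changes between 8 and 24 h of -1.18 ± 0.11 in MLN4924 and -0.42 ± 0.11 in DMSO. Its call within DMSO was lost without DMSO replicate 2 or 3 at 24 h, at an adjusted p of 0.0574 or 0.0765, and with arrays centred on their medians, at -0.32 and 0.0909. MELK, a kinase of the same wave, was the other entry gene with a small change at 24 h, -0.32 ± 0.095 (SE, adjusted p = 0.0106).

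The spindle checkpoint genes fell to very different degrees. All 5 were lower at 24 h, with a median log2 change of -0.80. BUB1, the kinase that recruits checkpoint proteins to kinetochores, gave 116, 142 and 108 with MLN4924, against 437, 425 and 430.1 with DMSO at 24 h. The arms were well apart, with a change of -1.59 ± 0.076 (SE, adjusted p = 1.84e-14), or 3.02-fold lower. At 8 h its arrays still overlapped, at 553, 569.6 and 557 with MLN4924, against 526, 599 and 593 with DMSO. TTK, the kinase (MPS1) that starts checkpoint signalling, changed by -1.38 ± 0.099 at 24 h, and BUB1B, which encodes BUBR1 of the mitotic checkpoint complex, by -0.80 ± 0.092. The 2 remaining genes encode other members of that complex and changed less: MAD2L1 by -0.40 ± 0.12 and BUB3 by -0.23 ± 0.053.

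Kinetochore and centromere genes were divided. Of 11, 8 were lower at 24 h, 1 was higher and 2 did not pass, and the median log2 change was -0.79. NUF2, part of the NDC80 complex that grips the microtubule end, gave 433, 454 and 436 with MLN4924, against 1465, 1359 and 1383.5 with DMSO at 24 h. No treated array came near a control, and the change was -1.60 ± 0.11 (SE, adjusted p = 1.03e-11). At 8 h the NUF2 arrays were 1579.9, 1159 and 1461 with MLN4924, against 1692, 1887 and 1602 with DMSO, without overlap, and the change of -0.31 ± 0.11 did not pass. The 3 other genes of that complex, NDC80, SPC25 and SPC24, changed by -0.91, -0.79 and -0.44 at 24 h, all past the threshold. CENPE, a kinesin-like motor of the kinetochore that is listed here as a centromere protein, and CENPF, a large kinetochore protein of G2 and M phase, changed by -1.45 and -1.19. CENPA, the histone H3 variant that marks centromeres, changed by -0.79 ± 0.15 on its only probe set with 1 gene symbol. A brighter probe set that carries the symbols of both CENPA and SLC35F6, which cannot be assigned to either, changed by -2.03 ± 0.076 (SE, adjusted p = 5.54e-16).

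CENPI, CENPK, CENPM and CENPN encode subunits of the assembly that sits on centromeric chromatin throughout the cell cycle. CENPK was lower by a log2 change of -0.42 ± 0.13 (SE, adjusted p = 0.0171). CENPI gave 38.3, 33.6 and 28.1 with MLN4924, against 48.0, 47.7 and 49.0 with DMSO at 24 h, near the median signal of all probe sets, 36.58. Its arms did not overlap, and the change of -0.30 ± 0.12 (SE, adjusted p = 0.0539) just missed the threshold; without MLN4924 replicate 1 it passed, at -0.35 and an adjusted p of 0.0451. A second CENPI probe set was lower by -0.42 ± 0.13 (SE, adjusted p = 0.0162). CENPM gave 159, 113.5 and 129 with MLN4924, against 178, 124.5 and 161 with DMSO. Its arms overlapped, the change was -0.17 ± 0.17 (SE, adjusted p = 0.529), and the 95% interval of -0.52 to 0.18 spans both a fall like that of CENPK and a small rise.

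CENPN was called higher at 24 h. Its signals were 1141.5, 1079 and 1060.4 with MLN4924, against 966, 785 and 906 with DMSO. Every treated array was above every control, with a change of 0.30 ± 0.089 (SE, adjusted p = 0.0103); without DMSO replicate 2 it was 0.22 with an adjusted p of 0.0898. The other CENPN probe sets above the median signal went the other way: one was lower by -0.69 ± 0.097 (SE, adjusted p = 4.55e-06) and another changed by -0.34 ± 0.14 (SE, adjusted p = 0.0851). CENPN can therefore be given no single direction. Between 8 and 24 h the probe set called higher changed by -0.23 ± 0.089 (SE, adjusted p = 0.0591) in MLN4924 and by -0.38 ± 0.089 (SE, adjusted p = 0.00484) in DMSO. That DMSO call was lost with arrays centred on their medians (adjusted p = 0.116), with only the groups compared (0.0732) and without _x_at and _s_at probe sets (0.0546).

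Of the genes that carry out anaphase, 3 of 4 were lower at 24 h, with a median log2 change of -0.83. UBE2C encodes the ubiquitin-conjugating enzyme that works with the anaphase-promoting complex. It gave 959.6, 832 and 1051 with MLN4924, against 2278, 2151 and 2300.1 with DMSO at 24 h. The arms were far apart, with a change of -1.22 ± 0.066 (SE, adjusted p = 2.06e-13). At 8 h the order had been the opposite, with 2797, 2909 and 2949 with MLN4924, against 2545.5, 2795 and 2752 with DMSO and no overlap, but that change of 0.097 ± 0.066 did not pass. CDC20, the activator of the complex that the checkpoint restrains, changed by -0.98 ± 0.086 at 24 h, and PTTG1, which encodes securin, by -0.67 ± 0.06. Between 8 and 24 h CDC20 changed by -1.75 ± 0.086 in MLN4924 and by -0.82 ± 0.086 (SE, adjusted p = 4.76e-07) in DMSO, the largest fall of the 50 genes within DMSO at that step.

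ESPL1 encodes separase, the protease that cuts cohesin. Its signals at 24 h were 206, 238 and 223 with MLN4924, against 273.5, 252 and 276 with DMSO. The arms did not overlap, but the change of -0.23 ± 0.091 (SE, adjusted p = 0.0507) missed the threshold; with replicate 2 of MLN4924 left out the adjusted p was 0.041, and with replicate 2 of DMSO left out 0.0485. The 2 probe sets of ESPL1 changed alike, by -0.23 and -0.23. ESPL1 did fall with time in both arms, by -1.0 ± 0.091 (SE) in MLN4924 and -0.54 ± 0.091 in DMSO between 8 and 24 h. At 8 h it had been 497, 447 and 486 with MLN4924, against 385, 404.5 and 418 with DMSO, higher on every treated array, although only 1 of its probe sets passed at that time, at 0.38 ± 0.12 (SE, adjusted p = 0.0454).

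Spindle genes held the largest falls and the clearest exception. Of 7, 6 were lower at 24 h, with a median log2 change of -1.37. HMMR encodes a microtubule-binding protein of the spindle poles that also serves as a hyaluronan receptor. It changed most of all 50 genes. Its signals at 24 h were 219.9, 253 and 171 with MLN4924, against 1741, 1596 and 1664 with DMSO. The change was -2.80 ± 0.10 (SE, adjusted p = 2.31e-16), or 6.95-fold lower. At 8 h the HMMR arrays still overlapped, at 1566, 1761 and 1765 with MLN4924, against 1712, 1921 and 2045 with DMSO. A second HMMR probe set was lower by -0.31 ± 0.068 (SE, adjusted p = 0.00339) at 8 h and by -1.78 at 24 h. Between 8 and 24 h the HMMR level changed by -2.82 ± 0.10 (SE, adjusted p = 6.93e-16) in MLN4924 and by -0.18 ± 0.10 (SE, adjusted p = 0.342) in DMSO, on the log2 scale.

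DLGAP5 (HURP) bundles microtubules near chromosomes. At 8 h it gave 754, 744 and 785 with MLN4924, against 844, 943 and 987 with DMSO. The arms did not overlap, with a change of -0.27 ± 0.069 (SE, adjusted p = 0.00821); without DMSO replicate 3 it was -0.22 with an adjusted p of 0.0582. At 24 h its signals were 219, 232 and 200.3 with MLN4924, against 804, 775 and 744 with DMSO, a change of -1.70 ± 0.069 (SE, adjusted p = 1.06e-15). ASPM, a spindle pole protein, and PRC1, which cross-links the central spindle, changed by -1.96 and -1.37. CKAP2 and TPX2, both microtubule-associated, changed by -0.68 and -0.52.

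NUSAP1, a microtubule-bundling protein of the same wave, stood out in this group. Its signals at 24 h were 2013, 2148 and 2178 with MLN4924, against 2336, 2148 and 2202 with DMSO. The arms overlapped, and the change was -0.076 ± 0.066 (SE, adjusted p = 0.444) and a 95% interval of -0.21 to 0.06. Its second probe set changed by 0.069. NUSAP1 did fall between 8 and 24 h within MLN4924, by -0.40 ± 0.066 (SE, adjusted p = 3.81e-05); in DMSO the change was -0.21 ± 0.066 (SE, adjusted p = 0.0416), a call that was lost without DMSO replicate 1 or 2 at 8 h or DMSO replicate 2 or 3 at 24 h, at an adjusted p between 0.0943 and 0.157.

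**Figure D3:**
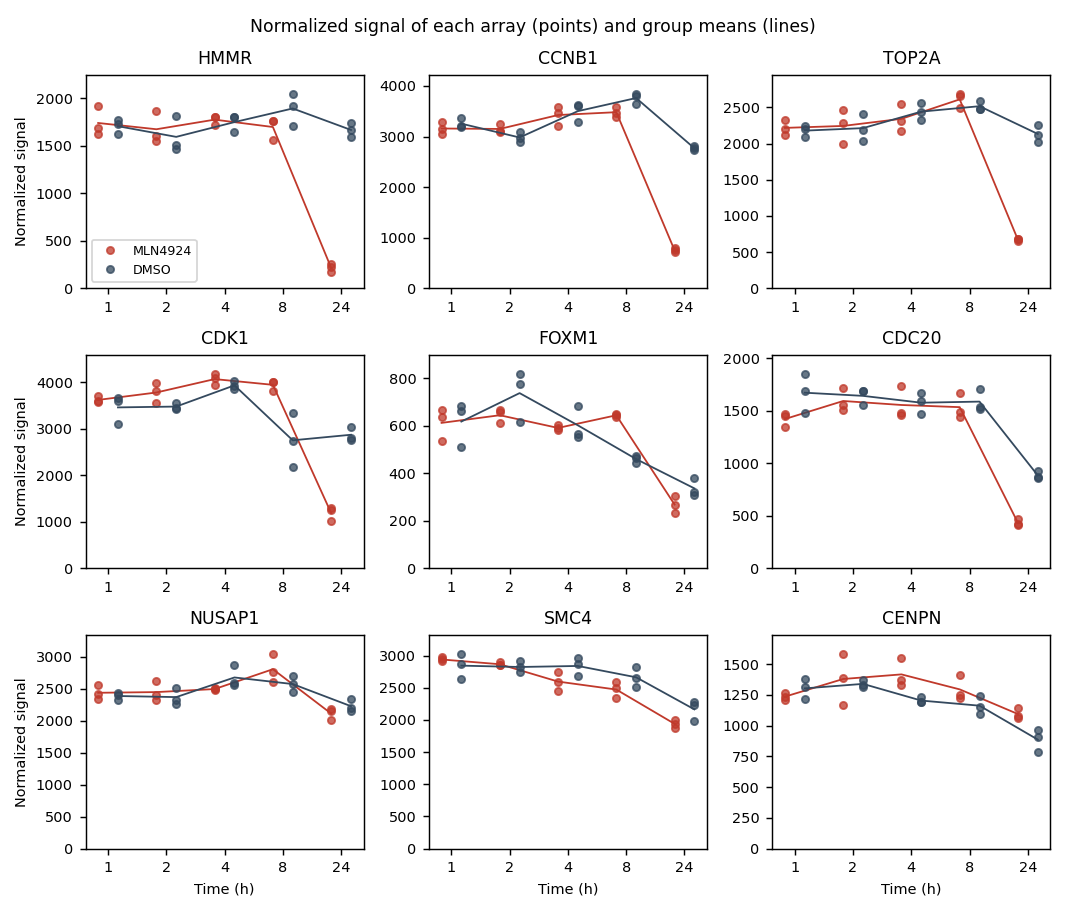
Normalized signal of each array (points) and group means (lines) against time in h, on a scale of equal steps, for 9 genes, with MLN4924 in red and left of DMSO in blue; every vertical axis starts at 0. HMMR and TOP2A part at 24 h only, CCNB1 lies a little lower at 8 h and far lower at 24 h, CDK1 and FOXM1 cross between 8 and 24 h, CDC20 falls in both arms, and at 24 h NUSAP1 and SMC4 overlap DMSO while CENPN lies above it.

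All 4 genes of the chromosomal passenger complex were lower at 24 h on the probe set that stands for each. Their log2 changes ran from -0.90 to -0.65, with a median of -0.82. CDCA8 encodes borealin, which helps to place the complex at the centromere. It was called at 8 h, with signals of 497, 499 and 484 with MLN4924, against 552, 598 and 596 with DMSO that did not overlap. That change was -0.22 ± 0.069 (SE, adjusted p = 0.029), and it was lost without any of the 3 MLN4924 arrays or without DMSO replicate 2 or 3 at 8 h, at an adjusted p between 0.0591 and 0.0955. At 24 h CDCA8 gave 188, 174 and 197 with MLN4924, against 354, 393.5 and 379.8 with DMSO, a change of -0.90 ± 0.069 (SE, adjusted p = 1.37e-10). BIRC5 (survivin), the kinase AURKB and the scaffold INCENP changed by -0.87, -0.77 and -0.65 at 24 h. The other BIRC5 probe sets changed less, by -0.66, -0.30 and -0.17, and the other AURKB probe set by -0.44. Those at -0.17 and -0.44 did not pass.

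All 3 cytokinesis genes were lower at 24 h, with a median log2 change of -0.98. ANLN encodes anillin, the scaffold of the cleavage furrow. Its signals at 24 h were 559, 573 and 507 with MLN4924, against 1712, 1693 and 1620.4 with DMSO. No arrays overlapped, and the change was -1.56 ± 0.088 (SE, adjusted p = 4.33e-13). ECT2, which activates RhoA at the furrow, changed by -0.98 ± 0.13, and RACGAP1, its central spindle partner, by -0.52 ± 0.074.

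Condensin and TOP2A, which shape and untangle chromosomes, were split. Of 6 genes 4 were lower at 24 h, 1 was higher and 1 did not pass, and the median log2 change was -0.58. TOP2A, the topoisomerase that decatenates sister chromatids, gave 677, 683 and 650.3 with MLN4924, against 2252, 2026 and 2123.5 with DMSO. The treated arrays were far below the controls, at -1.62 ± 0.076 (SE, adjusted p = 1.3e-14), or 3.08-fold lower. At 8 h the TOP2A arrays had overlapped, at 2687, 2492 and 2657 with MLN4924, against 2483, 2585 and 2484.5 with DMSO. The non-SMC subunits of condensin I were all lower, with log2 changes of -0.83 ± 0.14 for NCAPH, -0.68 ± 0.15 for NCAPD2 and -0.48 ± 0.08 for NCAPG.

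The SMC subunits, which form the ring of both condensins, did not follow. SMC4 gave 1943, 1998 and 1878 with MLN4924, against 1983.5, 2236 and 2273 with DMSO at 24 h. The arms overlapped slightly, and the change was -0.15 ± 0.065 (SE, adjusted p = 0.0731), with a 95% interval of -0.29 to -0.019; without DMSO replicate 1 it was -0.21 with an adjusted p of 0.0186. The other SMC4 probe sets disagreed, one lower by -0.38 ± 0.078 (SE, adjusted p = 0.00048) and one higher by 0.93 ± 0.14 (SE, adjusted p = 9.78e-06). SMC2 gave 579, 727 and 744 with MLN4924, against 513, 452 and 544 with DMSO. The treated arrays were all higher, with a change of 0.41 ± 0.13 (SE, adjusted p = 0.012). The adjusted p was 0.0539 or 0.0648 once MLN4924 replicate 2 or 3 was dropped and 0.0694 once DMSO replicate 2 was dropped, and the second SMC2 probe set changed by -0.059 ± 0.11 (SE, adjusted p = 0.807). At 1 h SMC2 had been on the other side, with 527, 593 and 483 with MLN4924, against 623, 745 and 722 with DMSO, although that change of -0.36 did not pass.

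The members not called lower at 24 h were thus CENPI, CENPM, CENPN, ESPL1, NUSAP1, SMC2 and SMC4. CENPI and ESPL1 lay on the side of a fall, close to the threshold, and were called lower under other settings. CENPI passed with signals as deposited (adjusted p = 0.0191), with arrays centred on their medians (0.0486), with 1 added (0.0403), with only the groups compared (0.026) and with dim genes left out (0.0374). ESPL1 passed with signals as deposited (adjusted p = 0.0279), with 1 added (0.0491), with dim genes left out (0.036) and with limma-trend (0.0434), and its change of effect from 8 to 24 h passed. SMC4 passed as lower with limma-trend (adjusted p = 0.0407). NUSAP1 had small changes of opposite sign on its 2 probe sets, neither past the threshold, and CENPM was measured by 1 probe set with a wide spread. CENPN, SMC2 and SMC4 had probe sets that disagreed.

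Read over all probe sets of the members rather than 1 for each gene, the picture at 24 h was similar. The 50 genes had 101 probe sets with their symbol alone, 24 genes with 1 and 26 with more, up to 6. In a fit of all 54675 probe sets 70 of the 101 were lower at 24 h and 4 higher, against 12.6% and 12.2% of all probe sets. Among the 89 with a mean signal above the median, 69 were lower, 3 higher and 17 did not pass. The 3 were those of CENPN, SMC2 and SMC4 described above. Of 25 genes with more than 1 such probe set, 13 had all of them lower and 7 had some lower and the rest not past the threshold. In 2 none passed (NUSAP1 and ESPL1), in 2 some were higher and some lower (CENPN and SMC4), and in 1, SMC2, 1 was higher and the other did not pass. At 8 h 8 of the 101 were lower and 3 higher, against 4.64% and 5.11% of all probe sets. Those 8 included second probe sets of HMMR, NEK2, BUB1 and CKAP2, with changes of -0.31, -0.74, -0.58 and -0.48.

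**Figure D4:**
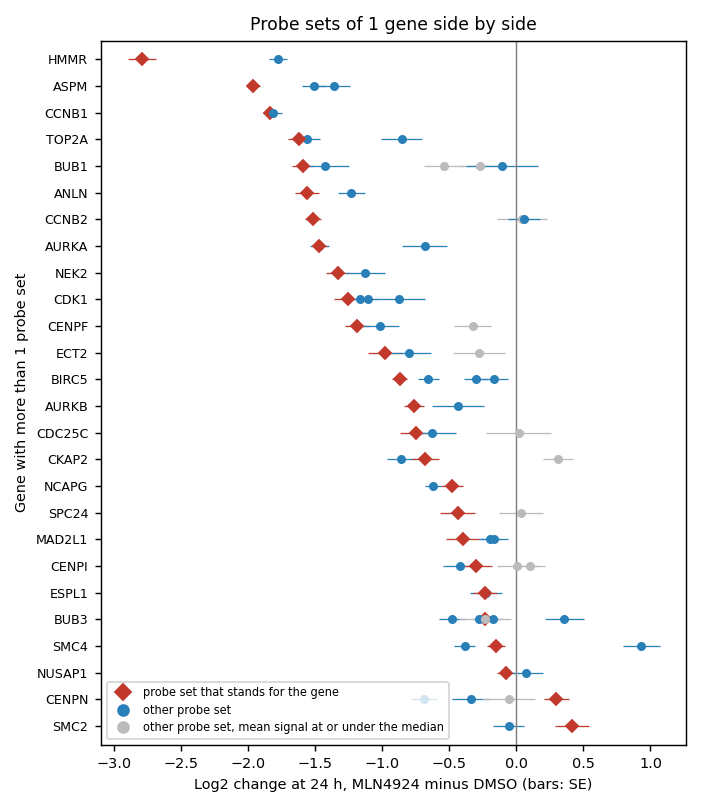
Log2 change at 24 h, MLN4924 minus DMSO, with its SE, of every probe set of the 26 genes that have more than 1; red diamonds are the probe sets that stand for a gene, blue points the others, and grey points others with a mean signal at or under the median of 36.58. Most blue points lie left of 0 near their diamond, while those of CENPN, SMC2 and SMC4 lie on the other side of 0 or far from it.

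The arms were also followed by themselves. Within MLN4924, 47 of the 50 genes were lower at 24 h than at 8 h, against 13.1% of all genes, with a median log2 change of -1.19. The 3 others were CENPI at -0.26 ± 0.12, CENPN at -0.23 ± 0.089 and SMC2 at -0.0042 ± 0.13. This depended on the probe set: without _x_at and _s_at probe sets CENPN was lower by a log2 change of -0.92 (adjusted p = 1.85e-05) and SMC2 by -0.49 (adjusted p = 0.00246). CENPN was also lower with the mean of its probe sets, at -0.59 (adjusted p = 1.86e-06), with limma-trend (adjusted p = 0.0396) and with dim genes left out (adjusted p = 0.042), and CENPI passed without MLN4924 replicate 2 at 8 h (adjusted p = 0.0466). Within DMSO, 29 of the 50 were lower at 24 h than at 8 h, against 4.93% of all genes, but the median change was -0.29. That count was 21 to 24 when an array was left out, and 13 when arrays were centred on their medians. None was higher within DMSO, against 7.34% of all genes. Between 1 and 24 h, 47 were lower in MLN4924, against 15.5% of all genes, and 22 in DMSO, against 8.47% (none higher, against 9.91%), with medians of -1.21 and -0.26. SMC2 alone was higher at 24 h than at 1 h in MLN4924, where 14.3% of all genes were called higher. Between 4 and 8 h 2 members were lower within MLN4924, CDCA8 and AURKB at -0.29 ± 0.069 and -0.26 ± 0.073, against 2.09% of all genes, and 1 was lower within DMSO, CDK1, against 0.091%. None was higher in either arm, against 1.92% of all genes in MLN4924 and 0.0303% in DMSO.

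**Figure D5:**
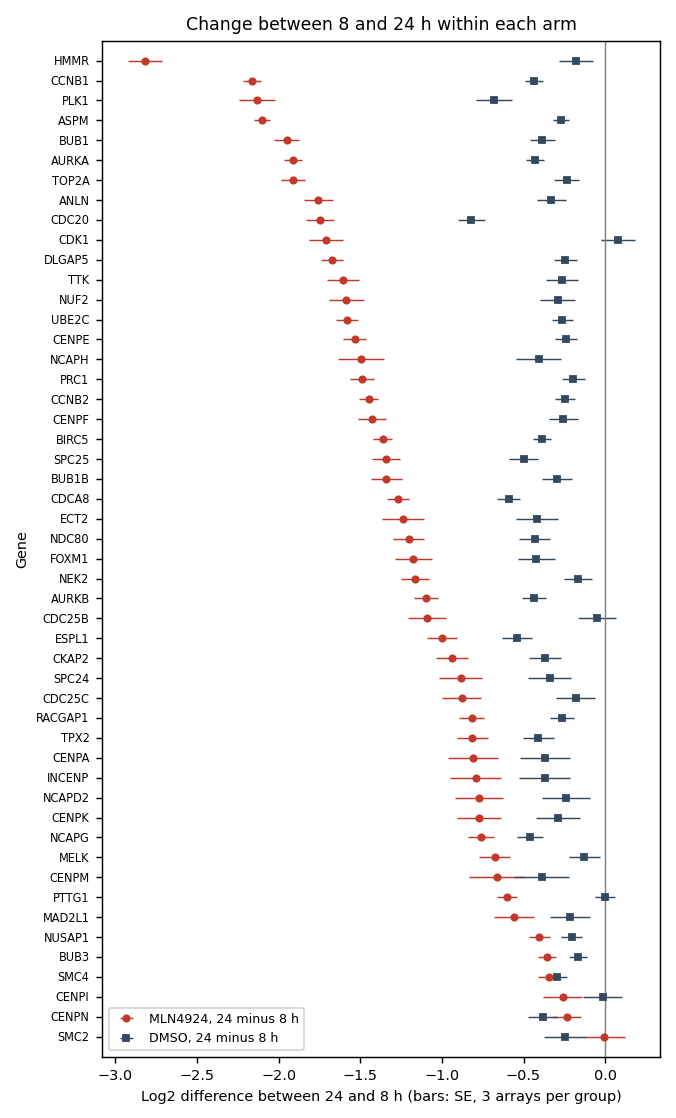
Log2 difference between 24 and 8 h, with its SE, of each of the 50 genes within MLN4924 (red circles) and within DMSO (blue squares), ordered by the difference within MLN4924. Most red circles lie far left of the blue squares of the same gene, and the arms meet at SMC4, CENPN and CENPI near the bottom.

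The promoters of these genes were searched for short sequences of the elements named above. Of the 50 genes, 41 matched a RefSeq window of 300 bases, from 250 before to 50 after the annotated start (GRCh38.p14), 8 of them with several windows. AURKA, BIRC5, BUB3, CENPM, FOXM1, RACGAP1, TPX2, TTK and UBE2C had no window here. The 120 bases before the start are printed for 3 genes with large falls and a TTTGAA match (HMMR, CCNB2 and PLK1). They are also printed for CCNB1, which fell by 1.84 on the log2 scale with no such match, and for ESPL1 and NUSAP1, which did not pass at 24 h. The bases run 5′ to 3′ along the gene, and capitals mark TTTGAA, a form of the CHR, and CCAAT. Each was searched on both strands, so that ATTGG is a CCAAT of the opposite strand. In HMMR 2 TTTGAA copies stand side by side, and 2 CCAAT matches of opposite strands overlap.
HMMR (chr5:163460512-163460631, plus strand): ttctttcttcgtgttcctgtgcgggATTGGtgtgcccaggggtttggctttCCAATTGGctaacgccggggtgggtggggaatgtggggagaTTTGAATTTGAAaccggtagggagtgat
CCNB2 (chr15:59105026-59105145, plus strand): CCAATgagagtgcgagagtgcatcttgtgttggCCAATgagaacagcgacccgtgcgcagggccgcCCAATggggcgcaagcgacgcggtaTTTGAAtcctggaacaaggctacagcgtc
PLK1 (chr16:23678769-23678888, plus strand): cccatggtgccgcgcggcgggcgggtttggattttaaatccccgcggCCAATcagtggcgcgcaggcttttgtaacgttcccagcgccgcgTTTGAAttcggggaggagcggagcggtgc
CCNB1 (chr5:69167030-69167149, plus strand): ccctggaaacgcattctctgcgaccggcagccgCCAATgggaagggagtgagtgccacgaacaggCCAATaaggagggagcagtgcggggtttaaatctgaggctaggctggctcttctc
ESPL1 (chr12:53268179-53268298, plus strand): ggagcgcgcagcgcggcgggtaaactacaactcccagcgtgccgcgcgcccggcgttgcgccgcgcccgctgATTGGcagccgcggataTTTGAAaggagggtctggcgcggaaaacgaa
NUSAP1 (chr15:41332761-41332880, plus strand): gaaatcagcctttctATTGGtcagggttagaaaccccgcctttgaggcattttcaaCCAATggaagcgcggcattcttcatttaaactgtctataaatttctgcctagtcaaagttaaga

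TTTGAA was found in a window of 28 of the 41 members (68.3%), against 18.2% of the 27305 genes with a window. CCAAT was found in 30 of the 41 (73.2%), against 39.7%. Both TTTGAA or its variant TTCGAA and CCAAT were present in 23 (56.1%), against 9.02%. The variant TTCGAA was in 3 members (7.32%), against 1.82%. Genes with several windows had more sequence in which to match, in the members and in the rest alike; over single windows the shares for TTTGAA and CCAAT in all genes were 15.2% and 34.6%. TTTGAA was in 11 of 16 members that were at least 2-fold lower at 24 h. It was in 12 of 19 that were lower by less, and in 5 of 6 that were not called lower. CCAAT was in 13 of 16, 14 of 19 and 3 of 6 of the same classes. Either TTTGAA or TTCGAA together with CCAAT was in 11 of 16, 9 of 19 and 3 of 6. These shares were not tested, and the last class is small. In NUSAP1 the TTTGAA match lies after the start, outside the printed bases, and CCNB1 held neither TTTGAA nor TTCGAA in its window. No other form of the CHR was searched, so a gene without a match may still hold one. A match is a run of letters and not a measured binding site.

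Other mitotic genes, from a list that shares no gene with the 50, fell in part. Of 55 measured, 31 were lower at 24 h and 6 higher, against 18.1% and 15.9% of all genes. Their median log2 change was -0.52. At 8 h 9 of them were lower and 7 higher, against 6.81% and 8.37% of all genes. DEPDC1 and DEPDC1B changed most, by -1.98 ± 0.059 and -1.66 ± 0.11 at 24 h, followed by FAM83D and PSRC1 at -1.35 ± 0.085 and -1.35 ± 0.089. At 8 h the largest called changes of that list were in CENPO, an inner kinetochore gene, at 0.97 ± 0.12, and SKA2 at -0.63 ± 0.065. Of 14 other cohesin and condensin genes 5 were lower at 24 h and 3 higher, against 18.1% and 15.9% of all genes. Their median was -0.080. NIPBL, the cohesin loader, changed by -0.78 ± 0.12 and the cohesin subunit RAD21 by -0.69 ± 0.11. Of 18 genes of the anaphase-promoting complex and its partners 5 were lower and 6 higher, beside the same shares of all genes at 24 h. Their median was 0.038. There the subunits CDC27, at -1.32 ± 0.18, and ANAPC7, at 0.75 ± 0.12, lay at the ends.

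Among 15 genes of the MuvB, DREAM and CDK inhibitor machinery, 3 were lower at 24 h and 5 higher. Over all genes 18.1% were called lower and 15.9% higher, so the count of lower ones was near the background. The median log2 change of the 15 was 0.071. CDKN1A, which encodes the CDK inhibitor p21, was higher by 1.34 ± 0.13 (SE, adjusted p = 7.34e-08) at 8 h and by 3.34 ± 0.13 (adjusted p = 7.41e-16) at 24 h. RBL2, which encodes the pocket protein p130 of DREAM, was lower by a log2 change of -1.51 ± 0.16 at 24 h, and CDKN1B, which encodes p27, by -0.96 ± 0.073. MYBL2, the activating partner of MuvB, was higher by 0.62 ± 0.17, and the MuvB subunit LIN37 by 0.67 ± 0.071. E2F4, RBL1 and LIN9 changed by 0.22 ± 0.10, 0.071 ± 0.13 and -0.36 ± 0.17 and did not pass. These values stand beside the fall of the 50 genes, and their part in it was not tested.

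Correlations within a group were at least 0.983 for every array. The signal of each array had the same trimmed mean of 150.02, which scaling sets and which says nothing about likeness. Before quantile normalization the median signal ran from 32.6 to 44. The ratio of 3′ to 5′ signal of ACTB, a sign of RNA integrity, was 1.26 to 1.33 at 24 h with MLN4924, against 1.24 to 1.35 with DMSO, and the highest ratios, 1.68 and 1.74, were on 2 DMSO arrays of 2 h, without which no member passed at 2 h in the fit either. The melanocyte markers SOX10, MITF and S100B had mean signals of 729, 300.5 and 297, while PMEL, MLANA and TYRP1 were at or under 24.4, below the median; 4 of 7 melanocyte markers were above it, as were 4 of 7 epithelial, 4 of 8 fibroblast and 3 of 7 blood and endothelial markers. At 24 h the melanocyte markers summed to 859 to 945 with MLN4924, against 2192 to 2450 with DMSO. S100B and SOX10 were called lower, at log2 changes of -3.49 ± 0.15 and -1.08 ± 0.19. They were the only 2 of the 7 called, where 18.1% of all genes were called lower. The 5 others did not pass, with log2 changes from -0.25 to -0.036. Both arms moved: within DMSO 3 of the 7 were higher at 24 h than at 1 h and none lower, against 9.91% and 8.47% of all genes. Within MLN4924, 2 of the 7 were lower and none higher, against 15.5% and 14.3%. Epithelial markers summed to 4794 to 5077 with MLN4924, against 2218 to 2359 with DMSO, mostly KRT18, while EPCAM, CDH1 and KRT19 lay below the median. Of the 7, KRT18 and KRT8 were called higher, at log2 changes of 1.19 and 0.51, and KRT14 lower, at -0.57. Over all genes 15.9% were called higher and 18.1% lower. Fibroblast markers summed to 324 to 368 with MLN4924, against 495 to 552 with DMSO. Blood and endothelial markers summed to 275 to 375, against 321 to 356. Of 8 fibroblast markers 4 were called lower and none higher, beside the same shares of all genes. Of 7 blood and endothelial markers 1 was called higher and none lower. PTPRC, CD14, VWF, COL1A2 and COL3A1 lay below the median, and the part of these markers in the fall of the mitotic genes was not tested. The 9 housekeeping genes summed to 49663 to 51509 with MLN4924, against 52734 to 53219 with DMSO. Of the 9, 3 were called lower and 3 higher, against 18.1% and 15.9% of all genes, with a median log2 change of -0.022.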

How the data were processed

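Labelled cRNA of each sample was put on 1 of 30 Affymetrix arrays with 54675 probe sets, 3 in each of 10 groups, which were taken from the sample titles. The deposited values are intensity on a linear scale, 1 per probe set and array, from Affymetrix Expression Console, per the submitters' processing notes. The sources used here give neither its version nor the algorithm. Scaling to 1 trimmed mean is seen in the values. Signals were quantile-normalized and transformed as log2(signal + 32). Of the probe sets 41097 had 1 symbol, 1801 several and 11777 none. For each gene the single-symbol probe set with the highest mean was kept, which gave 19775 genes. limma 3.58.1 (R 4.3.3) was fitted with 1 mean per group over all 30 arrays (20 residual and 3.037 prior degrees of freedom), with eBayes and Benjamini-Hochberg adjustment per contrast over all genes; tests are two-sided, the threshold was an adjusted p under 0.05, and intervals are at 95%. A second fit used every probe set. The precision is limited by the number of arrays. The fit was also tested on simulated data for the 24 h comparison (19775 genes). It recovered 33 of 60 genes shifted by log2 0.5, 67 of 68 shifted by 1 and 72 of 72 shifted by 2. There were 4 false calls. Far fewer genes were shifted than the 3577 lower and 3137 higher called in the data at 24 h. The recovered shares may therefore not carry over to the data.

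The members and the other lists were chosen with earlier results of these data known. Values of every array are given for the member with the largest called change in each role at 8 and 24 h, for each member not called lower at 24 h, called in both directions, or called by 4 h; other members may be named with their log2 change. From the other lists, up to 4 called genes with the largest change and 6 preset genes may be named. Some genes of the other lists, 3 of them of the other mitotic list, were not analysed here. Promoter windows are RefSeq's. Alternatives were the scaling, the added number, the arrays fitted, a replicate block, the choice of probe set, a filter on dim genes, the variance model, the adjustment and leaving out arrays. Leaving out both DMSO arrays of 2 h with a high ACTB ratio was added after the data were seen; no member then passed at 2 h.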

Additional observations from a re-analysis of the deposited data

Results flagged for a closer look

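The effect of MLN4924 differed between 24 and 8 h, by a test of the difference itself, for 37 of the 50 genes, and all 37 were lower at 24 h. As log2 changes of the effect, HMMR differed by -2.64, CDK1 by -1.79, CCNB1 by -1.73, TOP2A by -1.68 and BUB1 by -1.57. ANLN and DLGAP5 differed by -1.43 each, UBE2C by -1.32, NUF2 by -1.30, CDC25B by -1.04 and NEK2 by -0.99. For CDK1 (-1.79) and FOXM1 (-0.75) the effect at 8 h had been called higher and the effect at 24 h lower. The CDK1 call at 8 h was lost with only the groups compared, and the FOXM1 call at 24 h with arrays centred on their medians, at -0.23. CDCA8 differed by -0.68. ESPL1 differed by -0.46 although its change at 24 h did not pass.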

How the results depend on the processing

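Of 980 values of named genes under other settings 880 kept their direction and side of the threshold. The 24 h count of 43 lower was 41 to 43 with an array left out, and 28 of 40 measured without _x_at and _s_at probe sets. The count of 2 higher was 0 without them or with the mean over each gene's probe sets, and 0 to 2 with an array left out. Earlier counts moved more. At 2 h 1 member was lower with the mean of probe sets, without dim genes, with limma-trend or adjusted over the 5 times together, and 0 to 1 with an array left out. At 4 h the 1 lower member became 3 with the mean of probe sets and 0 with signals as deposited, centring on the median, 1 added, only the groups compared, the block, all probe sets, no _x_at or _s_at sets, or any array left out. At 8 h the 4 lower became 0 with centring and 1 with only the groups compared (3 to 4 with an array left out), and the 2 higher became 5 as deposited, 10 with centring, and 1 with only the groups compared or without _x_at and _s_at sets (2 to 3 with an array left out).

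The effect at 24 against 8 h was lower for 35 to 37 members with an array left out. At 8 against 4 h it was lower for 1 with the mean of probe sets and higher for 0 to 1 with an array left out. Within MLN4924, 47 to 48 members were lower at 24 than 8 h and 46 to 47 lower at 24 than 1 h with an array left out. The 1 higher at 24 than 1 h became 0 with 1 added, only the groups compared, the mean of probe sets, all probe sets or no _x_at or _s_at sets (0 to 1 with an array left out). From 4 to 8 h in MLN4924 the 2 lower became 1 with centring, 1 added, the block, all probe sets or no _x_at or _s_at sets, and 0 with only the groups compared (0 to 1 with an array left out), and 1 was higher with the mean of probe sets or no _x_at or _s_at sets. Within DMSO the 1 lower from 4 to 8 h became 0 with 1 added, only the groups compared, the mean of probe sets or all probe sets (0 to 1 with an array left out). The 29 lower at 24 than 8 h became 13 with centring, 16 with only the groups compared and 18 without _x_at and _s_at sets (21 to 24 with an array left out), and 22 lower at 24 than 1 h became 16 to 21 with an array left out. Without _x_at and _s_at sets only 40 members were measured; for the other moves the cause was not tested.

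The sign turned for CENPN at 24 h (-0.20 with the mean of probe sets, -0.34 without _x_at and _s_at sets), SMC2 (-0.059 without them), NUSAP1 (0.042 with centring) and SMC4 (0.13 with the mean of probe sets). For SMC2 in MLN4924, 24 minus 8 h, it turned to 0.0043 as deposited, 0.024 with centring, 0.10 without 8 h replicate 3 and 0.11 without 24 h replicate 1; with an array left out it lay between -0.10 and 0.11. Without _x_at and _s_at sets it was -0.49 and passed as lower, as CENPN did at -0.92, and at -0.59 with the mean of probe sets.

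Within a time, the deviations of same-numbered MLN4924 and DMSO arrays were nearly uncorrelated (correlations -0.106 to 0.073). This cannot decide whether same-numbered arrays shared a culture or day, as groups were small and arrays of different times were not correlated. With the replicate block 42 members were lower and 2 higher at 24 h. The 29 lower in DMSO at 24 than 8 h became 27. Among named genes the block ended the calls of FOXM1 at 24 h (adjusted p = 0.0581) and NUSAP1 in DMSO (0.0548). It also ended that of CDC25B at 4 h (0.0689). Signal over background limits CENPI, whose arrays lay near the median signal.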
